A study of Mus musculus with 12 samples.

Results

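The kidney transcriptome of vehicle-treated mice was described gene by gene in 6 of the 12 mice of the series, those labelled vehicle, with 1 whole-kidney RNA-Seq library per mouse. All 6 were male C57BL6 mice aged 8 weeks that had received 1 intraperitoneal injection of 15% 2-hydroxypropyl-beta-cyclodextrin, the carrier of the compound. The other 6 mice of the series had received SK-124, a small-molecule inhibitor of the salt-inducible kinases (SIKs) SIK2 and SIK3, at 40 mg/kg in the same carrier, and served here only for the spread among themselves. No uninjected mice were analysed here, so these levels are those of injected mice, and the time between injection and collection of the kidneys for RNA-Seq is not given in the sources used here.

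The kidney filters blood in glomeruli, whose podocytes hold back protein, and returns most of the filtrate to the blood along the tubule. The proximal tubule takes up glucose, phosphate, amino acids and filtered protein, the thick ascending limb and the distal convoluted tubule reclaim salt, and the collecting duct adjusts water and acid. The proximal tubule is rich in mitochondria and is also the site where 25-hydroxyvitamin D is turned into the active hormone.

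The 6 libraries held between 19350134 and 19771802 expected counts, which are RSEM's estimates of reads per gene, with a median of 19552756, and between 19482 and 19754 genes had a value above 0 in a library. Levels of different genes are given in TPM, which scales reads to gene length and to a fixed total in each library. The spread of 1 gene between mice is given in CPM, counts scaled to library size with edgeR's TMM method, for the 13094 genes whose mean reached 1 CPM. Its size is the coefficient of variation between mice (CV, the SD over the mean) after the variance that counting reads alone would give has been subtracted. The 4 Y-linked genes *Ddx3y*, *Eif2s3y*, *Kdm5d* and *Uty* were expressed in all 6 mice, and *Xist*, the RNA that silences an X chromosome in females, did not exceed 0.01 TPM, as the label male states. Each mouse is 1 library, so differences between mice and between library preparations cannot be told apart. In whole tissue, fewer cells of a type and less RNA per cell cannot be told apart either.

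Genes of the mitochondrial genome and their nuclear copies took a large share of the libraries, larger in TPM than in counts. The 13 mitochondrially encoded protein genes, which are subunits of the respiratory chain and ATP synthase, held 36.9% ± 2.41 (SD, n = 6) of TPM and 28.1% ± 0.828 of expected counts. A further 25.5% ± 1.21 of TPM and 12.2% ± 0.784 of counts was assigned to 6 unprocessed pseudogenes that lie side by side on chromosome 1, from 24612407 to 24616197 on the minus strand in GRCm38, and that are copies of mitochondrial genes. With the remaining genes of the mitochondrial genome, these 43 genes came to 62.8% ± 1.55 of TPM and 40.7% ± 1.10 of counts. For comparison, 85 genes of cytosolic ribosomal proteins held 1.92% ± 0.206 of TPM.

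The copies could not be separated from the mitochondrial genes by sequence over most of their length. *Gm28661* matched *mt-Co2* (cytochrome c oxidase subunit II) at 681 of 681 aligned bases, *Gm10925* matched *mt-Atp6* at 678 of 678, *Gm28437* matched *mt-Co3* at 783 of 783, *Gm28438* matched *mt-Nd3* at 342 of 342 and *Gm10222* matched *mt-Nd4l* at 294 of 294. *Gm29216*, which covers only bases 1063 to 1545 of *mt-Co1*, differed at 1 of 483. The end of *mt-Co2* and the same stretch of its copy on chromosome 1 (24614885 to 24615565) are shown because they differ only in the bases, in capitals, that lie beyond the end of the copy. Both sequences are those of the GENCODE M21 transcripts, 5′ to 3′.
mt-Co2, bases 595 to 684: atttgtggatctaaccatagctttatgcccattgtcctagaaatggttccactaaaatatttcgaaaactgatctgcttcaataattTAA
Gm28661, bases 595 to 681: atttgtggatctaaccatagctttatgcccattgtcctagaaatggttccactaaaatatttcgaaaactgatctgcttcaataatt

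For these pairs the deposited tables placed between 97.0% and 99.4% of the counts of *mt-Co2*, *mt-Co3* and *mt-Nd3* on the chromosome 1 copy, against 9.99% to 16.1% for *mt-Co1*. *mt-Co2* by itself was listed at 579 ± 86.2 TPM and *Gm28661* at 79173 ± 1951 TPM, and their sum was 79752 ± 1923 TPM. The level of a mitochondrial transcript was therefore read from the gene and its copy together.

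By deposited TPM, *mt-Atp8*, which encodes a small ATP synthase subunit, was the first of all genes, with 139250, 134426, 95097, 143195, 116842 and 117281 TPM in mice 1 to 6. Mouse 3 was lowest. The annotated gene is 204 bases long (7766 to 7969), and RSEM gave it an effective length of 26.9 to 31.2 bases. Its rank rests on that correction: *mt-Atp8* held 12.4% ± 1.81 of TPM but 0.422% ± 0.0759 of counts. The annotated gene overlaps *mt-Atp6*, which starts at 7927, and *mt-Nd4l* (to 10173) overlaps *mt-Nd4* (from 10167). Values per gene need not be levels of separate transcripts, and whether each pair shares 1 RNA was not tested. Per annotated length, with gene and copy merged and scaled to reads per kilobase and to library size (RPKM), *mt-Atp8* was ninth of the 13 at 20706 ± 3721. On that scale *mt-Co2* and *mt-Atp6* led at 62938 ± 2601 and 61967 ± 3742, whose ranges overlapped. They were followed by *mt-Cytb* at 46243 ± 2244, *mt-Co1* at 43668 ± 2312, *mt-Nd2* at 42513 ± 2606 and *mt-Nd1* at 40052 ± 1736, neighbours that differed by less than 2 SD. The lowest of the heavy-strand protein genes on that scale were *mt-Nd4l* (297 bases) at 8612 ± 1298 and *mt-Nd3* (348 bases) at 8043 ± 875. *mt-Nd6*, the only protein gene on the light strand, was at 2.40 ± 0.708. The ranks of *mt-Nd4l* and *mt-Nd3* also rest on the length used. By deposited TPM, each with its copy, they summed to 23092 ± 3178 and 17139 ± 1982. Both means exceeded that of *mt-Nd5*, at 15828 ± 1929 TPM and 15854 ± 1705 RPKM.

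Abundance was concentrated in few genes. By mean TPM, 9 genes held 50% of the total, the first 10 held 56.7% ± 1.55, the first 100 held 76.3% ± 1.01 and the first 1000 held 88.5% ± 0.594. At least 1 TPM in every mouse was reached by 11050 genes, of which 10194 were protein coding, and at least 1000 TPM by 33 genes. Among the 20 genes with the highest mean TPM, which held 69.5% ± 1.28, only *Kap*, *Gpx3*, *Fxyd2*, *Gapdh*, *Fth1* and *Klk1* lie outside the mitochondrial genome and its copies.

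*Kap*, the kidney androgen-regulated protein of the mouse proximal tubule, was the most abundant nuclear transcript, at 32272, 33192, 44238, 33003, 31600 and 31478 TPM in mice 1 to 6 (34297 ± 4920). Outside the mitochondrial genome and its copies it made up 9.20% ± 1.10 of TPM. Mouse 3 was above the other 5 mice, and without it the CV of *Kap* was 0.0746 in place of 0.195. *Gpx3*, the secreted glutathione peroxidase of plasma, which is made by the proximal tubule, came next at 22053, 23778, 25601, 21908, 22030 and 22896 TPM. Its lowest value exceeded 4 times the mean of the next nuclear gene.

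Below *Gpx3*, 3 transcripts had nearly the same level, and their ranges overlapped. These were *Fxyd2* (4623 ± 582 TPM), the gamma subunit of the sodium pump, the glycolytic enzyme *Gapdh* (4621 ± 593 TPM) and *Fth1* (4476 ± 225 TPM), the heavy chain of ferritin. *Klk1* (3098 ± 385 TPM), the tissue kallikrein of the connecting tubule, and *Acy3* (2904 ± 226 TPM), an aminoacylase of the proximal tubule, followed, again with overlapping ranges. The sodium-phosphate cotransporter *Slc34a1* (chromosome 13, 55398187 to 55415592, plus strand) was at 2133 ± 137 TPM and had rank 22 among all genes. Further genes among the first 20 nuclear genes fell in a few groups. Proximal tubule metabolism gave *Miox* (1392 ± 96.8 TPM), *Ass1* (1367 ± 118) and *Acsm2* (1276 ± 114), which act on inositol, citrulline and medium-chain fatty acids. Iron storage and selenoproteins gave *Ftl1* (2073 ± 171 TPM), *Gpx1* (1313 ± 121) and *Selenop* (1052 ± 89.4). Nuclear-encoded oxidative phosphorylation gave *Atp5b* (1603 ± 127 TPM), *Cox8a* (1200 ± 104) and *Cox6a1* (1028 ± 64.8), and translation gave *Eef1a1* (1364 ± 81.5).

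**Figure D1:**
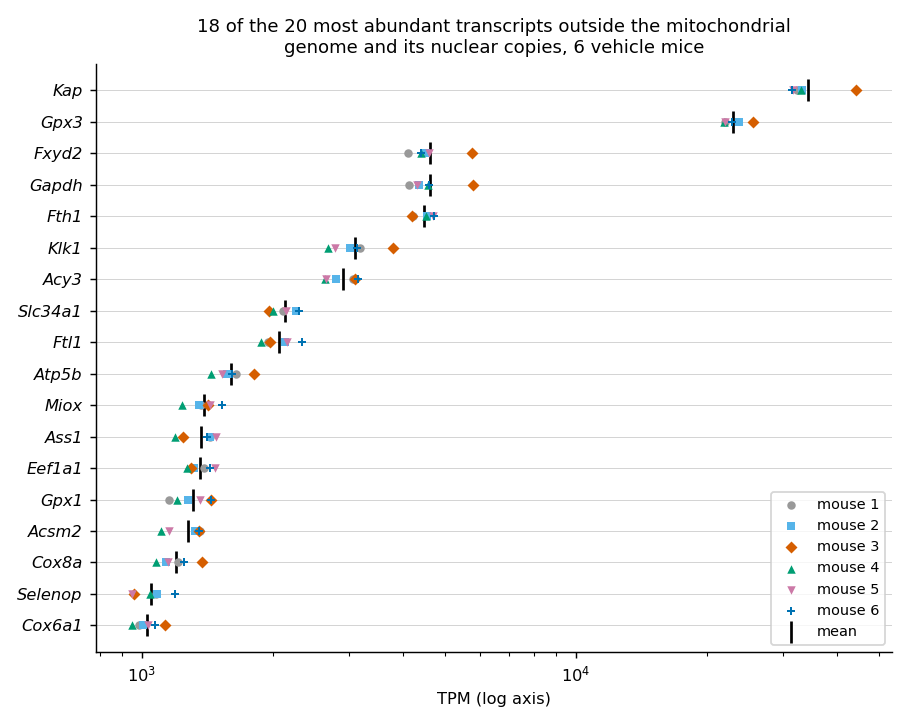
TPM (log axis) of 18 of the 20 most abundant transcripts outside the mitochondrial genome and its nuclear copies, with 1 point per vehicle mouse and a bar at the mean. *Kap* and *Gpx3* stand above the rest, and mouse 3 lies to the right of the other mice for *Kap*, *Fxyd2*, *Gapdh* and *Klk1*.

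The 5 segment markers that define the main tubule parts were present in every mouse, in proportions that differed over more than 1 order of magnitude. *Slc34a1* of the proximal tubule was at 2110, 2270, 1965, 2003, 2144 and 2306 TPM in mice 1 to 6, and its CV of 0.044 made it the steadiest of the 5. *Umod*, the uromodulin of the thick ascending limb, was at 807, 744, 563, 807, 917 and 771 TPM (CV 0.12), and *Slc12a3*, the thiazide-sensitive cotransporter of the distal convoluted tubule, at 249, 238, 166, 207, 246 and 249 TPM (CV 0.095). Mouse 3 was lowest for both. *Aqp2*, the vasopressin-regulated water channel of principal cells, was at 64.7, 77.9, 65.2, 72.5, 115 and 84.7 TPM, highest in mouse 5. *Lrp2* (megalin), the receptor that takes up filtered protein in the proximal tubule, was at 83.3, 84.0, 58.2, 74.95, 82.3 and 92.0 TPM, lowest in mouse 3. Without mouse 3 the CV of *Lrp2* went from 0.104 to 0.0420, of *Slc12a3* from 0.0947 to 0.0427 and of *Umod* from 0.124 to 0.0806. Without mouse 5 that of *Aqp2* went from 0.190 to 0.0815.

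The wider lists for segments and other cells held 145 genes, of which all had an identifier in the files and 108 reached a mean of 1 CPM. Their median CV was 0.140, against 0.0741 over all 13094 genes. A CV of 0.25 or more was met by 17 of the 108 markers, where 3.29% of all genes met it. The lists differ in length and in how abundant their genes are, so their summed TPM describes each list across mice and is no measure of cell number.

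Within the proximal tubule, all 22 listed genes had a CV under 0.25, as most genes did (3.29% of all genes reached it). The general list (*Lrp2*, *Cubn*, *Slc34a1*, *Hnf4a*, *Slc27a2*, *Slc4a4*, *Amn*) summed to 3280 ± 206 TPM. For S1, the first segment, the glucose cotransporter *Slc5a2* was at 124 ± 14.1 TPM, the neutral amino acid transporter *Slc6a19* at 48.1 ± 11.7 and the second phosphate cotransporter *Slc34a3* at 26.3 ± 6.09. For S2, the organic anion transporters *Slc22a6* and *Slc22a8* were at 208 ± 21.9 and 130 ± 10.8 TPM. For S3, the amino acid transporter *Slc7a13* was at 178 ± 19.4 TPM, and *Napsa* and *Acy3* made up most of the list's sum of 4168 ± 269 TPM. *Slc34a1* exceeded *Slc34a3* in every mouse, with no overlap.

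The thick ascending limb list summed to 1282 ± 183 TPM, with the furosemide-sensitive cotransporter *Slc12a1* at 158 ± 29.8 TPM and the growth factor gene *Egf* at 173 ± 34.9 TPM. It was highest in mouse 5 (1541 TPM) and lowest in mouse 3 (969 TPM). All 5 genes of the thin limb list were highest in mouse 5, where 17.4% of all genes were, and the list summed to 77.2 TPM in mouse 5 against 46.3 to 55.8 TPM in the others. Its member *Slc14a2*, a urea transporter gene, was at 21.7 ± 5.57 TPM over the 6 mice and at 31.5 TPM in mouse 5. The macula densa genes *Nos1*, *Ptgs2* and *Pappa2* did not exceed 0.56 TPM in any mouse.

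In the distal nephron, the connecting tubule list was set by *Klk1* and by the calcium-binding genes *S100g* (507 ± 90.9 TPM) and *Calb1* (99.5 ± 14.2 TPM), while the calcium channel *Trpv5* was at 3.03 ± 0.478 TPM. *Trpm6*, the magnesium channel of the distal convoluted tubule, was at 1.75 ± 0.296 TPM. The principal cell list summed to 241 ± 35.1 TPM and was highest in mouse 5 at 306 TPM, with *Fxyd4* at 48.4 TPM there and 22.5 to 31.7 TPM elsewhere. Intercalated cells of type A and B had summed levels of 71.8 ± 5.78 and 42.1 ± 4.55 TPM. The transcription factor *Foxi1*, which is needed for intercalated cells, was at 10.3 ± 0.668 TPM and the bicarbonate exchangers *Slc4a1* and *Slc26a4* at 11.7 ± 1.83 and 9.31 ± 1.56 TPM.

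**Figure D2:**
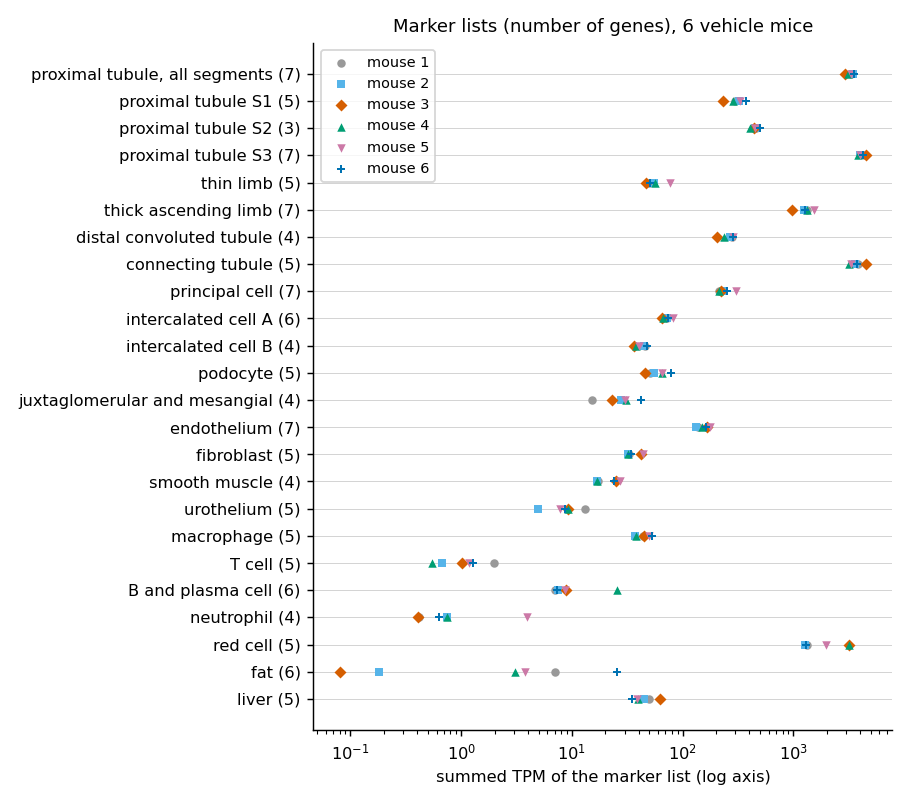
Summed TPM (log axis) of each marker list with a mean of at least 1 TPM, with 1 point per vehicle mouse and the number of genes in parentheses. Most lists span less than the fat list, which goes from 0.08 to 25.4 TPM. The B and plasma cell list reaches 25.7 TPM in mouse 4 and the red cell list exceeds 3000 TPM in mice 3 and 4.

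Glomerular and vascular lists were less abundant than those of the proximal tubule. All 5 podocyte genes were highest in mouse 6 by CPM, where 13.9% of all genes were. *Podxl*, which encodes the surface protein podocalyxin, was at 24.0, 25.1, 18.8, 31.6, 31.5 and 37.5 TPM in mice 1 to 6. *Ren1*, which encodes renin, was at 15.0, 34.1, 28.4, 40.7, 31.3 and 50.7 CPM, lowest in mouse 1 and highest in mouse 6, with a CV of 0.36. The 7 endothelial genes summed to 155 ± 17.0 TPM and were led by *Plvap* of fenestrated endothelium (81.5 ± 9.95 TPM) and *Emcn* (40.5 ± 5.57 TPM). They did not share 1 order of mice: *Plvap* was highest in mouse 3 (214 CPM) and lowest in mouse 6 (142 CPM), whereas *Kdr*, *Flt1*, *Ehd3* and *Cdh5* were highest in mouse 6. Fibroblast genes summed to 36.4 ± 5.42 TPM, and *Col1a1*, a chain of type I collagen, was at 59.0 CPM in mouse 3 and 27.1 to 33.6 CPM in the others.

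The 5 red cell genes all had a CV of 0.25 or more, where 3.29% of all genes did. The hemoglobin gene *Hba-a1* was at 521, 500, 1221, 1162, 728 and 496 TPM, *Hbb-bs* at 231, 226, 619, 624, 346 and 236 TPM, and *Alas2*, the first enzyme of heme synthesis in red cell precursors, at 3.54, 3.31, 10.2, 10.1, 5.97 and 3.78 CPM. Mice 3 and 4 were high in all 3 genes, mouse 5 lay between, and mice 1, 2 and 6 were low. Macrophage genes summed to 44.4 ± 6.18 TPM, with the complement genes *C1qa*, *C1qb* and *C1qc* and the receptor gene *Csf1r* leading.

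Fat genes were highest in mouse 6. *Cfd*, which encodes adipsin, was at 4.05, 0, 0, 1.63, 2.27 and 11.3 CPM in mice 1 to 6, and *Ucp1*, the uncoupling protein of brown fat, at 0.923, 0, 0, 0.367, 0.247 and 6.39 CPM. A count of 0 allows up to 0.155 CPM in mouse 2 and 0.159 CPM in mouse 3 (3 counts, counting error only). *Adipoq* and *Plin1* were also at 0 in mice 2 and 3 and highest in mouse 6. Among the 13094 genes, *Cfd* and *Ucp1* were those in which mouse 6 exceeded the other 5 mice by 2-fold or more (0.0153%), and *Ucp1* reached a mean of 1 CPM only through mouse 6. Below that mean, *Plin1* was at 2.26 CPM in mouse 6 against at most 0.513 CPM and *Cidec* at 2.95 CPM against at most 0.820 CPM. The immunoglobulin light chain gene *Igkc* was at 1.23, 1.19, 1.65, 7.92, 1.23 and 0.934 CPM, highest in mouse 4, whereas the B cell gene *Ms4a1* did not exceed 0.413 CPM.

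Urothelial genes, which mark the lining of the renal pelvis, were low. *Upk1a* was at 6.82, 2.48, 4.73, 4.40, 3.50 and 3.83 CPM, and all 4 uroplakin genes tested were highest in mouse 1, where 13.6% of all genes were. Lists for adrenal cortex, pancreas and skeletal muscle were near 0, and that for liver was not. Of 7 adrenal cortex genes, *Cyp11a1*, *Cyp11b2* and *Cyp21a1* were at 0 in every mouse and no member exceeded 0.62 TPM. No pancreatic gene exceeded 0.07 TPM, and of the muscle genes *Ckm* and *Myh4* were at 0 while *Mylpf* reached 1.28 TPM. The liver list summed to 45.1 ± 10.2 TPM, with *Serpina1a* at 30.2 ± 9.41, *Fga* at 7.39 ± 0.737 and *Apoa2* at 7.13 ± 1.41 TPM, while *Ahsg* was at 0.

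The spread between vehicle mice was small for most genes. The median CV over 13094 genes was 0.0741, with quartiles of 0.0365 and 0.120. A chi-square test of dispersion against counting noise, with Benjamini-Hochberg adjustment over all genes, called 6682 genes (51.0%) at an FDR under 0.05. Both values rested on mouse 3: without it the median CV was 0.0449 and 3702 genes were called. A CV of 0.25 or more was reached by 431 genes (3.29%), 0.5 or more by 60 and 1 or more by 16, and 342 genes (2.61%) differed by 2-fold or more between the highest and the lowest mouse. Of the 431, 312 were among the 3059 genes between 1 and 5 CPM. The median CV was 0.1 in that class, 0.0687 from 20 to 100 CPM and 0.0858 above 1000 CPM.

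Shared reads also went with a large CV. Of 211 tested genes whose reads RSEM divided among similar genes, 37.0% had a CV of 0.25 or more, against 2.74% of the others. *Zc3h11a* was listed under a pair of identifiers that overlap on chromosome 1, at 25.7, 40.8, 2.76, 3.46, 23.9 and 21.9 CPM for the first and 10.3, 0.103, 43.8, 35.0, 17.2 and 19.2 CPM for the second. Their sum was 36.0, 40.9, 46.6, 38.5, 41.2 and 41.0 CPM, with a CV of 0.0784, so that each identifier's CV of over 0.7 was not present in the sum. Likewise, *Sept2* had a CV of 0.844 under its second identifier and of 0.0539 for the sum of both.

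Within the 6 SK-124-treated mice the same measure gave a median CV of 0.0683. Of the 431 genes with a CV of 0.25 or more in vehicle mice, 35.5% also reached it within SK-124-treated mice, against 2.72% of the genes that did not reach it in vehicle mice. These mice were not used to choose the 431 genes. The sets compared were not matched for level or shared reads, which also went with a large CV. Of the 431, 312 lay between 1 and 5 CPM and 78 had shared reads. Conversely, 27.9% of the 548 genes that reached it in SK-124-treated mice did so in vehicle mice.

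**Figure D3:**
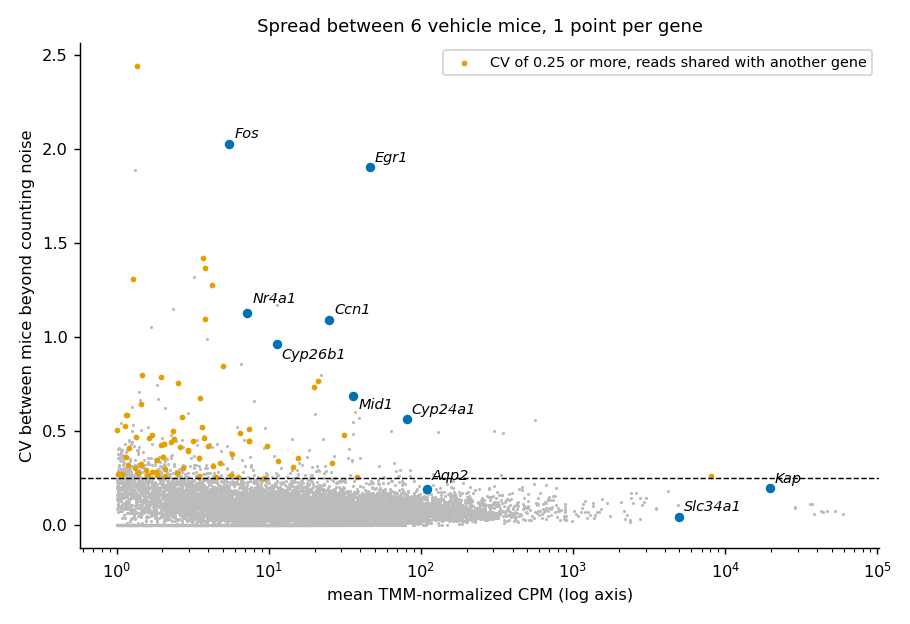
CV between the 6 vehicle mice beyond counting noise against mean TMM-normalized CPM (log axis), with 1 point per gene, orange for genes with shared reads and a CV of 0.25 or more (dashed line) and blue for labelled genes. Among the labelled genes *Fos* and *Egr1* stand highest at 2.03 and 1.90, while *Slc34a1* at 0.044 lies near the bottom.

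Of the 20 genes with the largest CV at a mean of at least 5 CPM, 8 were immediate-early genes, which cells transcribe within minutes of a stimulus without new protein synthesis, and all 8 were highest in mouse 5. *Fos*, a subunit of the transcription factor AP-1, was at 0.871, 0.517, 0.638, 2.20, 28.2 and 0.541 CPM in mice 1 to 6. *Egr1*, a zinc finger transcription factor, was at 6.61, 6.04, 13.1, 19.6, 224 and 6.49 CPM, 11.2-fold above the next mouse (pseudocount 0.5 CPM). Mouse 5 stood apart in both, and mouse 4 was second. The orphan nuclear receptor gene *Nr4a1* was at 3.59, 3.15, 2.87, 4.14, 23.8 and 5.80 CPM, and *Ccn1*, a secreted matricellular protein, at 11.3, 15.1, 11.6, 18.4, 80.2 and 12.6 CPM. *Junb*, another AP-1 subunit, was at 15.4, 10.8, 17.8, 17.6, 57.6 and 12.9 CPM.

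The gene lists, this one among them, were chosen with earlier results of these data known, so counts over them are not independent of these data. Of the 19 immediate-early genes listed, 13 reached a mean of 1 CPM. All 13 were highest in mouse 5, where 17.4% of all genes were. *Fos* reached that mean only through mouse 5. Of all 19, with those below it, 16 were highest in mouse 5, while *Atf3* was highest in mouse 1 and *Nr4a2* and *Nr4a3* in mouse 6, at no more than 0.983 CPM. A total of 11 of the 13 had a CV of 0.25 or more, and without mouse 5 only 3 did, *Fos* (0.711), *Egr1* (0.566) and *Nr4a1* (0.276). All 9 genes in which mouse 5 exceeded every other mouse by 2-fold or more (0.0687% of genes) were on this list, namely *Fos*, *Egr1*, *Nr4a1*, *Ccn1*, *Junb*, *Ier2*, *Btg2*, *Dusp1* and *Zfp36*. The last pair act as brakes, *Dusp1* on MAP kinases and *Zfp36* on unstable mRNAs, and were at 76.2 and 83.3 CPM in mouse 5 against at most 32.5 and 37.9 CPM elsewhere. *Klf2* and *Klf4* were highest in mouse 5 by small margins, with CVs of 0.22 and 0.17. Within the SK-124-treated mice the CV was 0.606 for *Fos* and 0.868 for *Egr1*.

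Promoters are shown for 3 of these genes, which moved together in mouse 5. *Nr4a1*, *Dusp1* and *Zfp36* also rose there but are not shown, because the 250 bases before their start overlapped the annotated gene. Each sequence is the 250 bases before the RefSeq transcription start in GRCm38.p6, written 5′ to 3′ on the strand of the gene, with capitals for TGACG or its reverse complement CGTCA, the core of the cAMP response element that CREB binds.
Fos, chr12:85473640-85473889, plus strand: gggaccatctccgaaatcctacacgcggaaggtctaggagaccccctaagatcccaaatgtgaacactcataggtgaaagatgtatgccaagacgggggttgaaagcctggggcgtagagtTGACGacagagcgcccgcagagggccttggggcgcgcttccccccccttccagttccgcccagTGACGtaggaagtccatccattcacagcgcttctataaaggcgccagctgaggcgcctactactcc
Junb, chr8:84978749-84978998, minus strand: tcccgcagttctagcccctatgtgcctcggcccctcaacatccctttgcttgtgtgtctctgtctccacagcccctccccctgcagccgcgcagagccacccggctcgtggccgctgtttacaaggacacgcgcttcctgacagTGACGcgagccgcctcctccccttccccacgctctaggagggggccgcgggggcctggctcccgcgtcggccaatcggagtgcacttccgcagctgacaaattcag
Ccn1, chr3:145649986-145650235, minus strand: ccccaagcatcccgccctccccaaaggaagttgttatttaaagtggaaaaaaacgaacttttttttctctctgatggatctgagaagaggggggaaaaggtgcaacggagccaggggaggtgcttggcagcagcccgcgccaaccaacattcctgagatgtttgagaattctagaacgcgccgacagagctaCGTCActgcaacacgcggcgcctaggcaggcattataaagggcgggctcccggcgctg

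The motif stood at positions -129 to -125 and -66 to -62 from the start site in *Fos*, -106 to -102 in *Junb* and -58 to -54 in *Ccn1*, and a TATAAA box at -33 to -28 in *Fos* and -25 to -20 in *Ccn1*. Searched on both strands, TGACG or CGTCA was present in 8 of the 11 immediate-early genes searched and in 17.8% of all 32851 promoters of this length. *Jun*, *Ier3* and *Zfp36* lacked it. The windows of *Nr4a1* and *Dusp1*, which are among the 8, and of *Zfp36* overlapped the annotated gene and were counted all the same. *Egr1* and *Ier2* were not among the 11, *Egr1* because genes on chromosome 18 were left out of the search. The full palindrome TGACGTCA was present in 2 of the 11 and in 1.55% of all, and the E-box CACGTG in 2 and in 6.02%. On the gene's strand TATAAA was present in 2 of the 11 and in 7.59% of all. The CArG box of serum response factor, searched on both strands, was present in 1 of the 11, *Zfp36*, and in 1.47% of all. Sites farther than 250 bases before the start were not searched, so a gene without a match here may hold one there. These are matches of letters and do not show that a factor was bound.

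Clock genes differed in mouse 5 by smaller amounts. The circadian clock drives some of its genes through E-box and D-box sites and others through ROR elements, and these sets peak at different times of day. Of 9 tested genes of the first set, 8 were highest in mouse 5 (17.4% of all genes), and the exception was *Nr1d1*. *Dbp*, an output transcription factor of the clock, was at 22.4, 15.1, 22.9, 13.1, 42.7 and 20.7 CPM in mice 1 to 6 (CV 0.46) and the repressor gene *Per1* at 11.7, 16.7, 11.2, 16.8, 28.3 and 22 CPM (CV 0.36). Of 5 ROR-driven genes, 4 were lowest in mouse 5 (17.0% of all genes), among them the clock activator genes *Npas2*, at 9.48 CPM against at least 15.8 CPM elsewhere, and *Arntl*, at 8.83 CPM against at least 11.6 CPM. A CV of 0.25 or more was reached by 3 of the 9 and by 0 of the 5 (3.29% of all genes), and none stood 2-fold apart in mouse 5. The sources used here give no time of day for any mouse.

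Stress-related genes showed smaller differences. The heat shock gene *Hspa1b* was at 9.48, 15.4, 10.7, 13.7, 24.4 and 17.6 CPM (CV 0.35), and *Sgk1*, a kinase gene induced by corticosteroids, at 16.7, 23.0, 15.3, 24.8, 32.5 and 30.1 CPM (CV 0.29). Both were highest in mouse 5, but *Fkbp5*, a glucocorticoid target, was lowest there at 24.1 CPM. Metallothioneins, interferon-stimulated genes and tubular injury genes had no member with a CV of 0.25 or more among 2, 10 and 6 tested, where 3.29% of all genes reached it. The injury marker *Havcr1* (KIM-1) was at 1.44 ± 0.581 TPM and *Lcn2* (NGAL) at 3.32 ± 0.762 TPM, while *Spp1* (osteopontin) was at 296 ± 28.6 TPM.

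**Figure D4:**
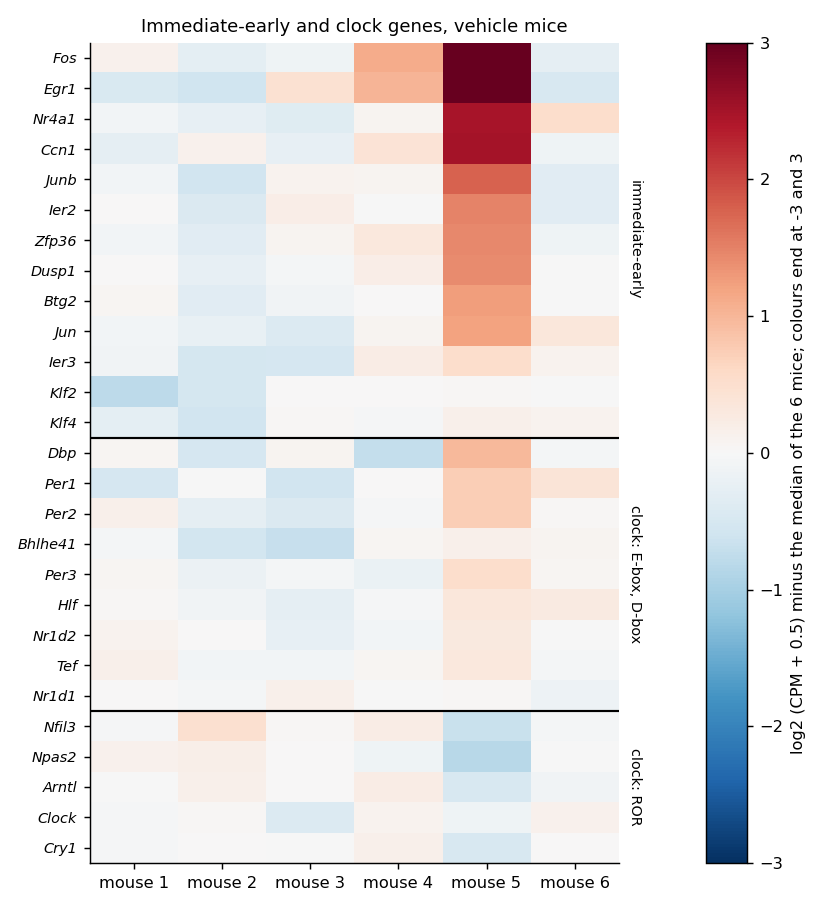
Heat map of log2(CPM + 0.5) minus the median of the 6 vehicle mice for 3 gene lists, namely immediate-early genes and the clock genes with E-box or D-box sites or with ROR elements. Mouse 5 has the darkest red for *Fos*, *Egr1*, *Nr4a1* and *Ccn1* and a faint colour for *Klf2* and *Klf4*, and it is the lowest of the 6 for 4 of the 5 ROR-driven genes, with *Clock* lowest in mouse 3.

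Mouse 3 departed from the others along gene length. Its median log2 deviation from the mean of the 6 mice was 0.26 for the 1281 genes under 1000 bases, 0.10 for those from 1000 to 2000 bases, -0.12 for those from 3000 to 5000 bases and -0.20 for the 1457 genes of 5000 bases and over. In the other mice the medians of all length classes lay between -0.072 and 0.074. Mouse 3 was highest in 70.6% of genes under 1000 bases and lowest in 63.3% of those of 5000 bases and over, against 29.2% and 29.6% of all genes. The mean fragment length that RSEM used was 211.6 bases in mouse 3 and 199.9 to 204.4 bases in the other 5, and its part in the trend was not tested.

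Many, but not all, of the genes named above followed the trend. *Kap*, *Fxyd2*, *Gapdh*, *Klk1*, *Cox8a* and *Cox6a1*, with short transcripts, were highest in mouse 3, and *Lrp2*, *Egf* and *Slc12a1*, with long ones, were lowest. The shortest abundant annotated genes went the other way. *mt-Atp8* (204 bases) was at 3157 CPM in mouse 3 against at least 3784 CPM elsewhere. The mitochondrial copy *Gm10222* (294 bases) was at 1884 CPM against at least 2079 CPM. The first principal component, with 39.6% of the variance, separated mouse 3 from the rest, and the next, with 20.4%, separated mouse 5. Some genes in mouse 3 lay far beyond the length trend, and it was 2-fold or more above every other mouse in 4 genes (0.0305%) and 2-fold or more below in 10. In the other mice 0 to 4 genes were that far below. The formin gene *Diaph2* on the X chromosome was at 22.4, 21.2, 3.35, 20.8, 22.1 and 21.2 CPM, 5.54-fold below the next mouse (pseudocount 0.5 CPM), and the noncoding RNA gene *AC102496.1* was at 8.51, 3.36, 37.9, 5.30, 4.59 and 8.06 CPM. *Kcnq1ot1*, an imprinted antisense RNA, was at 17.2 CPM against at most 8.30 CPM, and *Atp7a*, a copper transporter, at 5.0 CPM against at least 10.8 CPM. Because the use of strand in counting is not given in the sources used here, reads of *Kcnq1ot1* and of the gene opposite to it cannot be told apart.

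**Figure D5:**
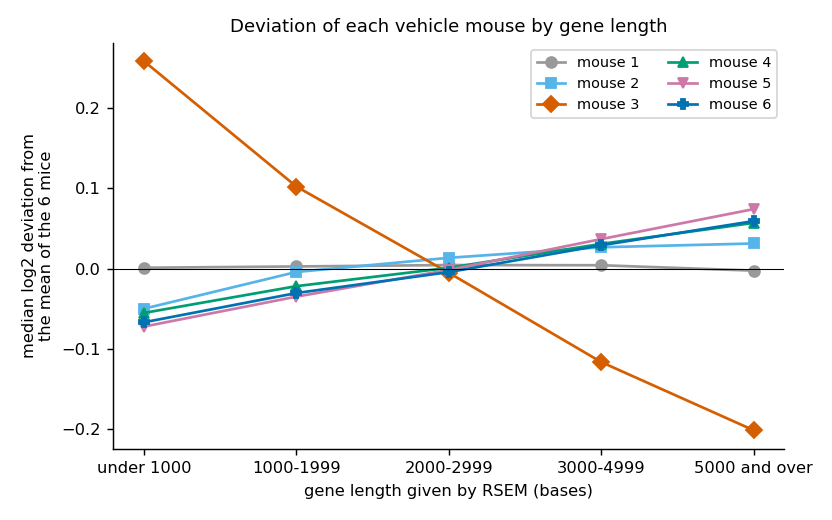
Median log2 deviation of each vehicle mouse from the mean of the 6 mice (y axis) in 5 classes of gene length in bases (x axis), with 1 line per mouse. Mouse 3 falls from 0.26 to -0.20 with length while the other lines stay between -0.072 and 0.074.

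The remaining mice each had a few genes of their own. *Cyp26b1*, which degrades retinoic acid, was at 33.0, 7.85, 4.57, 6.76, 4.74 and 10.8 CPM and was the only gene in which mouse 1 exceeded the others by 2-fold or more (0.00764% of genes). Without mouse 1 its CV was 0.359 in place of 0.962. *Aldh1a3*, which makes retinoic acid, followed another pattern, at 4.10, 6.41, 1.75, 1.47, 16.5 and 9.14 CPM, highest in mouse 5. Its CV was 1.06 within the SK-124-treated mice. *Pdk4*, a switch from glucose to fat oxidation, was highest in mouse 1 at 27.1 CPM against at most 17.1 CPM.

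*Socs2*, a feedback inhibitor of growth hormone signalling, was highest in mouse 2 at 26.3 CPM against at most 15.7 CPM. *Bcl6*, a transcriptional repressor, was at 10.7, 11.8, 8.61, 36.9, 20.6 and 32.2 CPM, high in mice 4 and 6. Mouse 4 exceeded the other 5 mice by 2-fold or more in 3 genes (0.0229%), among them *Igkc* and *CT010467.1*. *CT010467.1* was at 1189 CPM in mouse 4 against at most 575 CPM elsewhere, and without that mouse its CV was 0.217 in place of 0.560. In mouse 6 the chemokine gene *Cxcl14* was lowest at 9.19 CPM against at least 14.0 CPM.

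*Mid1*, an E3 ubiquitin ligase gene on the X chromosome from 169685199 to 170005736, split the mice 3 against 3. It was at 14.5, 51.0, 14.5, 65.7, 12.5 and 57.7 CPM, high in mice 2, 4 and 6 and low in mice 1, 3 and 5. In the C57BL6 mouse this gene spans the boundary of the pseudoautosomal region, which X and Y share. A pair of Y-linked pseudogenes, chosen after their values were seen, followed the same order: *Mid1-ps1* was at 0, 7.65, 0, 8.23, 0 and 6.83 CPM and *Gm21742* at 0.103, 6.10, 0.159, 9.07, 0 and 7.57 CPM. Reads of *Mid1-ps1* were among those RSEM divided between similar genes. Within the SK-124-treated mice the CV of *Mid1* was 0.616.

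Genes of vitamin D and mineral metabolism included a pair with a CV of 0.25 or more among 13 tested, where 3.29% of all genes reached it. *Cyp27b1*, which makes active vitamin D, was at 1.44, 2.14, 1.18, 1.97, 3.82 and 3.37 TPM in mice 1 to 6, higher in mice 5 and 6 than in the other 4, with a CV of 0.38. *Cyp24a1*, which inactivates it, was at 40.3, 12.7, 14.4, 10.8, 16.1 and 35.2 TPM, higher in mice 1 and 6 than in the other 4, with a CV of 0.56. Its level exceeded that of *Cyp27b1* in every mouse. *Cyp24a1* overlaps *Pfdn4* on the opposite strand in GENCODE M21, so that their reads cannot be told apart where the genes overlap.

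The receptors varied less. *Pth1r*, the receptor for parathyroid hormone, was at 155 ± 9.72 TPM with a CV of 0.07. The vitamin D receptor gene *Vdr* was at 70.3 ± 11.1 TPM. *Kl* (klotho), the coreceptor for FGF23, was at 104 ± 16.9 TPM and its partner *Fgfr1* at 13.5 ± 1.65 TPM.

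Among the SIK genes, *Sik3* was at 13.0, 14.2, 10.7, 13.0, 14.6 and 15.3 TPM and *Sik1* at 8.89, 7.87, 9.25, 8.44, 11.99 and 11.4 TPM, with *Sik3* higher in each mouse although the ranges overlapped. *Sik2* was lowest, at 4.49, 4.02, 2.74, 4.90, 5.26 and 5.22 TPM, and all its values were below all those of *Sik1*. Of the CREB coactivators that SIKs phosphorylate, *Crtc2* led at 21.4 ± 1.43 TPM, while *Crtc1* at 4.32 ± 0.975 TPM and *Crtc3* at 3.25 ± 1.09 TPM had overlapping ranges. *Stk11*, which encodes the kinase LKB1 upstream of SIKs, was at 29.2 ± 2.22 TPM. By CPM none of the *Sik* and *Crtc* genes had a CV of 0.25 or more (3.29% of all genes did), while *Crtc3* had 0.335 on the deposited TPM.

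Metabolic lists had few members past the CV threshold, as all genes did (3.29%). Of 11 tested PPAR-alpha and fasting genes, which summed to 675 ± 56.2 TPM, only *Pdk4* had a CV of 0.25 or more. By CPM, 7 of the 11 were highest in mouse 1 (13.6% of all genes), 3 in mouse 6 and 1 in mouse 4. The 9 cholesterol synthesis genes summed to 174 ± 13.9 TPM. None of the 9 had a CV of 0.25 or more, or 1 when mouse 1, 3, 4 or 5 was left out. Androgen-dependent kidney genes other than *Kap* had CVs from 0.05 to 0.21. Among them *Cyp4b1* was at 691 ± 34.1 TPM and *Odc1* of polyamine synthesis at 185 ± 29.4 TPM.

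By TMM-normalized CPM, the steadiest genes, chosen for the smallest spread in these same mice, varied no more than counting reads would give. Of 5455 genes whose mean reached 20 CPM, 274 had a CV of 0, and the 10 with the smallest spread before subtraction were *Mtfr1l*, *Anapc2*, *Tcf25*, *Rtn4ip1*, *Ssr1*, *Gpbp1l1*, *Ankrd40*, *Noc2l*, *Smim14* and *Aqp11*. *Mtfr1l*, a mitochondrial protein gene, was at 69.1, 69.9, 70.8, 70.2, 70.1 and 70.5 CPM. *Aqp11*, an aquaporin of the proximal tubule, was at 38.3, 37.4, 39.1, 39.1, 38.3 and 38.5 CPM. Within the SK-124-treated mice the CVs of these 10 genes ran from 0 (*Anapc2*) to 0.0896 (*Aqp11*), where the median over genes was 0.0683. In deposited TPM the 10 genes spread more in vehicle mice than in CPM. Relative to the mean, that spread was smallest for *Rtn4ip1* (10.8 ± 0.452 TPM) and largest for *Tcf25* (54.8 ± 11.2 TPM). By CPM, common reference genes ranged more widely in vehicle mice than these 10, which were picked for their small spread. *Hprt* and *Tbp* had CVs of 0.04 and 0.05, and *Actb*, *Gapdh* and *Ppia* of 0.14 each, and 7 of the 10 reference genes were highest in mouse 3, where 29.2% of all genes were.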

How the data were processed

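Total RNA of whole kidney, extracted with Trizol and sequenced on the BGISEQ500 platform per the labels, was analysed for 6 vehicle-treated mice, and for 6 SK-124-treated mice only for the spread among them. The submitters' processing notes name FastQC, STAR 2.7.2b, RSEM 1.3.0, DESeq2 and the mm10 build (GRCm38). The annotation and the use of strand are not given in the sources used here. The authors deposited RSEM gene tables that hold an expected count for each gene, an estimate that need not be whole and is not normalized. The authors' TPM in the same tables is relative to RSEM's effective length of a gene and to the sum over all genes in that library. A deposited score, RSEM's posterior SD of the count, served only to mark genes whose reads RSEM divided among similar genes. The posterior mean of the count was not used. Of 55401 identifiers, 54349 matched GENCODE M21 including the version and 55141 when it was ignored, and coordinates are given only for the former.

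Expected counts were rounded and scaled with TMM. The CV is the SD over the mean of TMM-normalized CPM after the mean count was subtracted from the variance, for genes whose mean reached 1 CPM. The chi-square test used 5 degrees of freedom. Levels were described with no test, and no level was compared with SK-124-treated mice. The paper's main text names no count test for RNA-Seq, its supplemental methods were not used here, and no treatment contrast was fitted. No library repeated another, since the smallest chi-square per gene between a pair of vehicle mice was 5.18, where counting noise gives about 1. The total per library, about the same in all mice, limits mainly genes with few counts, and floors cover counting error only. The methods were tested on simulated counts. Software was Python 3.11.15 with scipy 1.17.1, pandas 2.3.3, numpy 2.4.6 and matplotlib 3.10.9, and R 4.3.3 with DESeq2 1.42.0 and edgeR 4.0.16.

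The members, gene lists and rules were chosen with earlier results of these data known. The genes named are the 20 with the highest mean TPM, the genes of the lists, the 20 with the largest CV at a mean of at least 5 CPM, the 10 with the smallest at 20 CPM or more and up to 5 per mouse in which it stood farthest from the others. The 20 most abundant nuclear genes, *Mid1-ps1*, *Gm21742*, *Nnt* and some further genes are exceptions to this rule, named once their values had been seen. Some genes that the rule names are not reported here. The alternatives tried were other scalings, filters, thresholds and pseudocounts, TPM in place of CPM, shares of counts in place of TPM, dispersions of edgeR and DESeq2, and each mouse left out in turn. Leaving out the nuclear copies, mice 3 and 5 together or genes with shared reads, annotated in place of effective length, and further checks were added after seeing the data.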

Additional observations from a re-analysis of the deposited data

Results flagged for a closer look

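Of 97 values looked at (summed TPM of the lists and CPM of named genes), 32 had a mouse whose gap to the nearest other mouse was past Dixon's 95% limit for 6 samples. Chance alone gives about 1 in 20, or 4.8, but many of the named genes were chosen for a large CV or for a mouse that stood apart, so the number of flags cannot be set against it. Mouse 5 accounted for 15 of them, mouse 3 for 13, mouse 4 for 2, mice 1 and 6 for 1 each and mouse 2 for 0. Genes of a list move together, so these are not 32 separate events.

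Mouse 5 was highest in the summed TPM of the immediate-early list (334.66, next 103.06), the thin limb list (77.16, next 55.81) and the neutrophil list (3.94, next 0.75). In CPM it was highest in *Egr1* (224.065), *Fos* (28.1809), *Nr4a1* (23.7884), *Ccn1* (80.1501), *Junb* (57.6449), *Ier2* (18.5569), *Zfp36* (83.2594), *Dusp1* (76.2018), *Jun* (69.1936), *Btg2* (19.3959) and *Aqp2* (148.9), and lowest in *Selenop* (1848.73, next 2158.92).

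Mouse 3 was highest in the summed TPM of the androgen-dependent list (45299.2, which *Kap* sets) and of the reference genes (7336.04, which *Gapdh* sets). In CPM it was highest in *Kap* (27052.1), *Fxyd2* (3212.81), *Gapdh* (3856.66), *Klk1* (3453.47), *Miox* (1361.41), *Gpx1* (1060.11), *Cox8a* (574.648), *Cox6a1* (501.78), *Stk11* (54.2121) and *AC102496.1* (37.9484), and lowest in *Lrp2* (1080.47, next 1323.07). Genes under 1000 bases were highest in mouse 3 in 70.6% of cases, and the part of gene length in these values was not tested.

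Mouse 4 was highest in the summed TPM of the B and plasma cell list (25.66, next 8.90, with *Igkc* at 20.1 TPM) and in *CT010467.1* (1189.04 CPM). Mouse 6 was highest in the summed TPM of the fat list (25.37, next 7.08), and mouse 1 in *Cyp26b1* (33.0083 CPM, next 10.7611).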

How the results depend on the processing

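The share of TPM in the 20 highest genes (69.5%) was 47.3% as a share of expected counts and 54.8% with mitochondrially encoded genes left out of the total, and 25.7% with their nuclear copies left out too and 63.7% with annotated in place of effective length, both chosen after seeing the data. It was 69.05% to 69.8% with each mouse left out. The number of genes with a CV of 0.25 or more (431) was 3672 with no filter on low counts, 119 at a mean of at least 5 CPM, 1561 for the deposited TPM, 816 with the counting variance not subtracted, 898 at a threshold of 0.2 and 60 at 0.5. It was 405 to 548 with each mouse left out. The median CV (0.0741) was 0.135 for TPM, 0.0388 with mice 3 and 5 left out together (chosen after seeing the data) and 0.0449 to 0.0779 with each mouse left out, lowest without mouse 3. The 38 genes in which 1 mouse stood 2-fold apart became 60 with no filter, 23 at a mean of at least 5 CPM, 191 at 1.5-fold and 23 without genes with shared reads (chosen after seeing the data), and 32 to 47 with each mouse left out. Chi-square calls (6682) ranged from 3702 without mouse 3 to 6573. With DESeq2 size factors they were 6672 and with library totals 7330. Recomputed CVs of 43 named genes stayed on their side of 0.25 in 377 cases, came below it in 9 and above it in 1. Depth limits genes near 1 CPM, where counting noise is large beside the spread between mice. No paired analysis was possible because only 1 group was described and no contrast was fitted.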

Other observations

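Beside *Cyp26b1* and *Aldh1a3*, further retinoid genes, chosen after their values were seen, showed no common pattern across the vehicle mice. The receptor gene *Rarb* was at 9.79, 5.06, 6.06, 6.19, 6.71 and 5.21 CPM in mice 1 to 6, highest in mouse 1 as *Cyp26b1* was. The retinol uptake receptor gene *Stra6* was at 1.90, 3.20, 1.38, 2.67, 3.65 and 2.80 CPM, with mouse 5 highest and mouse 3 lowest. *Cyp26a1* was at 0.127 ± 0.0396 CPM (SD, n = 6).

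*Nnt*, the mitochondrial transhydrogenase gene, was listed under a pair of identifiers in these C57BL6 mice. The first was at 60.5, 67.6, 49.4, 61.8, 67.9 and 68.4 CPM and the second at 4.77, 0, 13.8, 1.89, 0.0494 and 1.62 CPM, with a CV of 1.42 for the second and of 0.0288 for the sum of both. Near the pseudoautosomal boundary, *Gm47283* was at 37.4, 110, 92.5, 59.1, 28.5 and 52.4 CPM, an order of mice that differed from that of *Mid1*.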
